A study of Homo sapiens with 32 samples.

Results

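The change in mRNA levels after camptothecin (CPT) in U2OS cells was set against the change between a second set of libraries, gene by gene, as a difference of differences: the log2 fold change between CPT- and DMSO-treated U2OS cells, minus the log2 fold change between the even- and the odd-numbered libraries described next. It used 16 of the 32 libraries of the series, 4 in each of 4 arms, and 22363 of 60107 genes, those with more than 1 count in at least 2 of the 16. Of these, 2651 passed the cutoffs in the difference of differences (absolute log2 value above 1 and adjusted p below 0.05, from edgeR's quasi-likelihood test, adjusted over all genes tested by Benjamini-Hochberg). A gene that passed is called higher or lower throughout.

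The first side was U2OS, a human osteosarcoma line, with 4 libraries labelled camptothecin-treated (replicates 26 to 29) and 4 labelled DMSO-treated (replicates 30 to 33). The second side was chosen by title number: replicates 10, 12, 14 and 16, here the even libraries, are all labelled U2OS ATM KO, and of the odd libraries, replicates 11, 13 and 15 are labelled U2OS WT and replicate 17 HEK293T DMSO. HEK293T is a human embryonic kidney line that expresses SV40 large T antigen. The protocol given with every sample says that HEK293T cells received CPT or DMSO for 24 h with 48 h of recovery, and that U2OS cells grew untreated for 72 h, which does not match the labels of replicates 26 to 33. The labels give no dose. HEK293T cells received 100 nM and U2OS cells 400 nM CPT for mass spectrometry, and by the methods of the study RNA was taken from the same cells, in repeats described as independent. All cells grew in the same medium, and the labels name no batch.

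The second side went against its labels. The 10 U2OS markers examined summed to 4888 to 5456 CPM (counts scaled to the library's total on genes) in the CPT and 2746 to 3150 CPM in the DMSO libraries, but to 164 to 250 CPM in the even and 76.0 to 88.7 CPM in the odd libraries, where S100A6, TGFBI, THBS1 and CD44 reached at most 1.24 CPM, the highest value being that of THBS1 in the even libraries. The 10 HEK293T markers summed to 1534 to 1631 CPM in the even and 1770 to 2112 CPM in the odd libraries, against 80.3 to 107 CPM in the U2OS arms. NEFM, a neurofilament, stood at 126 to 337 CPM in the even and odd libraries and at 0.344 CPM or less in every library of the U2OS side, while 3 others on that list did not separate the sides. PAX2 had 3.10 to 4.55 CPM in the odd libraries and 3.12 to 4.71 CPM in U2OS with CPT, CRABP1 had at most 0.157 CPM in any of the 16, and LEFTY1 was highest in U2OS with DMSO, at 2.05 to 9.88 CPM against at most 1.28 CPM in the even and odd libraries. The 8 libraries thus carry HEK293T markers, 7 of them under a U2OS label, so that the condition separating even from odd libraries is uncertain. Of the arms of this series, the odd libraries come closest, though not exactly, to the control levels that the study lists for its comparison of CPT and DMSO in HEK293T cells, so even minus odd may be that comparison. The labels do not give it, and the arms are called even and odd here. The reverse held for replicates 1 to 8, labelled HEK293T but for replicate 1, which took no part in the fit: their U2OS markers summed to 3594 to 5697 CPM and their HEK293T markers to 84.0 to 154 CPM. Cell line, agent, dose and library series cannot be told apart between the sides.

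Counts on genes ranged from 2887962 to 4161068 in the U2OS libraries, from 4500361 to 5937539 in the odd libraries and from 3126324 to 6362433 in the even libraries, where replicate 16 was the deepest. Mitochondrial transcripts took 30.5 to 32.3% of the counts with CPT and 20.6 to 26.8% with DMSO in U2OS, and 13.7 to 18.8% in the even and 9.70 to 11.1% in the odd libraries. After thinning to 2887962 counts, 19941 to 20519 genes had a count in the even and 17764 to 18167 in the odd libraries. The summed U2OS markers were higher with CPT and higher in the even than the odd libraries (values above). The part of these differences in the gene results was not tested. These are bulk libraries, in which fewer cells of a type and less RNA per cell cannot be told apart.

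CPT stabilises the cleavage complex of topoisomerase 1, the enzyme that relieves torsional stress by nicking DNA, so that replication forks and transcribing polymerases run into a protein-linked break. Such breaks activate the kinases ATM and ATR and, through them, the transcription factor p53, whose targets halt the cell cycle, repair DNA or trigger apoptosis. In HEK293T cells, large T antigen binds p53 and also inactivates the retinoblastoma proteins, which restrain the genes of S phase and mitosis. ATF4, a factor translated when amino acids are short or the endoplasmic reticulum is stressed, drives amino acid synthesis and transport and lies on a pathway separate from p53.

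In U2OS cells, 1504 genes were higher with CPT (6.73% of those tested) and 1066 lower (4.77%). Between the even and odd libraries, 2010 were higher in the even (8.99%) and 886 lower (3.96%). The difference of differences was above the cutoff in 1151 genes (5.15%) and below it in 1500 (6.71%). Calls in both differences numbered 583, which were 22.7% of the U2OS calls and 20.1% of the even-minus-odd calls. Of these, 420 moved the same way (1.88% of genes tested, 318 of them higher) and 163 in opposite directions (0.729%, 131 of them lower with CPT in U2OS and higher in the even libraries). A change in U2OS only, meaning a call there, none in even minus odd and a call in the difference of differences with the same sign, was found for 819 genes (3.66%, 363 higher), and a change in even minus odd only for 828 (3.7%, 524 higher). A further 1168 genes called in U2OS and 1485 called in even minus odd had no call on the other side but also none in the difference of differences, so they were not assigned to one side. Because these classes were chosen by the fitted values, the folds of their members are a description and carry no test. At the fold cutoff, the smallest absolute difference of differences called was 1.0003 and the largest not called, with an adjusted p below 0.05, was 0.99966, and 1893 genes passed on p but fell short of the fold.

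Restricting to the 9710 genes with a mean of at least 5 CPM in the 8 libraries of each side left 109 genes that moved together, 54 in opposite directions, 420 in U2OS only and 336 in even minus odd only. Across these genes the 2 log2 fold changes had a Pearson r of 0.16 and a Spearman rho of 0.17, as a description, since the genes share libraries and are not independent. Of the 819 U2OS-only genes, 304 (37.1%) had under 5 CPM on the even and odd side, beside 50.6% of all genes tested. Of the 828 even-minus-odd-only genes 362 (43.7%) had under 5 CPM in U2OS, beside 50.4%. On the even and odd side itself 51.4% of them did. Genes called on both sides were more often low there: 65.5% of those that moved together and 57.7% of the opposite. In U2OS these 2 classes had 46.0% and 41.7% under 5 CPM. Protein-coding genes made up 80.2% of the genes that moved together, 90.8% of the opposite, 85.7% of the U2OS-only and 73.2% of the even-minus-odd-only class, beside 67.9% of all genes tested.

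**Figure D1:**
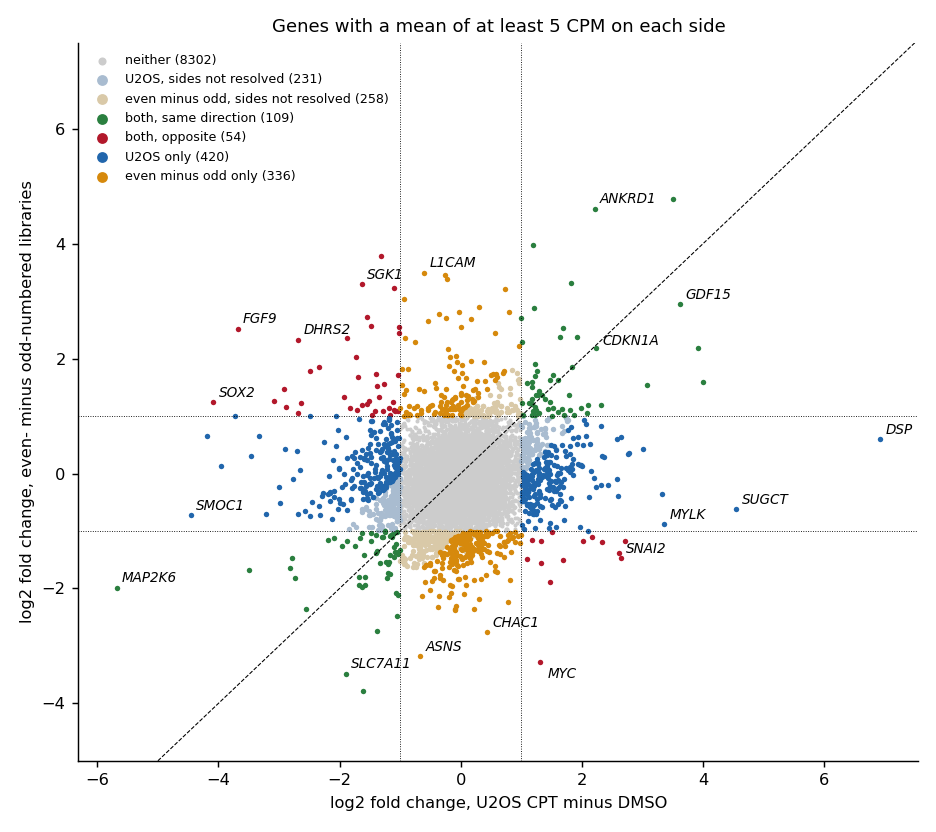
Each point is 1 of 9710 genes with a mean of at least 5 CPM on each side, with the log2 fold change in U2OS (CPT minus DMSO) on the x axis and the even-minus-odd log2 fold change on the y axis, coloured by class, with dotted lines at the cutoff of 1 and a dashed line of equal change. The 54 opposite genes lie in the upper left and lower right corners, MYC at 1.31 and -3.28, and the 109 genes that moved together lie in the other corners.

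Genes that rose on both sides included p53 targets and growth factors. CDKN1A, which encodes the cyclin-dependent kinase inhibitor p21, had 434, 393, 388 and 390.2 CPM in the 4 CPT libraries and 105, 91.5, 91.1 and 96.4 CPM in the DMSO libraries. It had 121, 149, 125 and 228 CPM in the even and 29.6, 19.5, 56.9 and 32.4 CPM in the odd libraries. No CPT or even library overlapped its own comparison arm. The log2 fold changes were 2.23 ± 0.18 (SE) in U2OS and 2.18 ± 0.18 (SE) in even minus odd, a difference of 0.05 ± 0.25 (SE). Each SE was worked back from the F statistic of the quasi-likelihood test and is approximate. GDF15, a stress-induced cytokine, had 280.4, 308, 350.4 and 397 CPM with CPT against 20.4, 40.3, 30.8 and 29.8 CPM with DMSO, and 67.05, 82.7, 43.8 and 88.5 CPM in the even against 3.2, 5.25, 26.2 and 3.33 CPM in the odd libraries. Odd replicate 15 stood apart. Without it the even-minus-odd value of GDF15 went from 2.94 to 4.10, and its difference of differences went from 0.68 to -0.48, called in neither case. The antisense transcript AC097478.1, whose reads cannot be told from those of an overlapping gene unless the counting used strand, led the class, with means of 56.7 and 5.52 CPM with CPT and DMSO and 12.9 and 0.473 CPM in the even and odd libraries. AREG and HBEGF, ligands of the EGF receptor, rose on both sides, AREG from a mean of 4.57 to 75.2 CPM in U2OS and from 0.84 to 4.79 CPM in odd to even.

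Shared falls included a kinase, a transporter and histone genes. MAP2K6, a kinase upstream of p38, had 0.294, 0, 0.693 and 0.312 CPM with CPT and 25.6, 18.9, 19.6 and 15.1 CPM with DMSO, and 10.1, 10.5, 7.68 and 6.13 CPM in the even against 37.9, 25.7, 27.8 and 38.8 CPM in the odd libraries. It was lower in the difference of differences, with 4 counts in all in the CPT libraries. SLC7A11, the cystine importer, had 37.7, 34.1, 32.2 and 27.8 CPM with CPT, 152, 151, 146 and 104 CPM with DMSO, 21.7, 22.2, 24.6 and 15.6 CPM in the even and 142, 279.7, 297 and 181 CPM in the odd libraries. Its fall was larger in even minus odd (-3.48 ± 0.18 (SE)) than in U2OS (-1.90 ± 0.17 (SE)). Building the second side from the labels put it at -0.73 there, where it was not called, and the difference of differences turned from 1.59 to -1.18. The transcription factor gene TFAP4 and the phosphatase gene IMPA2 also fell on both sides, by 1.68 and 2.73 on the log2 scale in U2OS and by 1.94 and 1.82 in even minus odd. ANKRD1, a target of YAP and SRF in contractile cells, rose on both sides as fitted, from a mean of 304 to 1268 CPM and from 0.935 to 22.7 CPM. Another set of controls ended that call: the HEK293T DMSO replicates 22 to 25 had 23.6, 23.7, 12.02 and 6.81 CPM, with which the even-minus-odd value was 0.58 and the difference of differences went from -2.40 to 1.63.

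**Figure D2:**
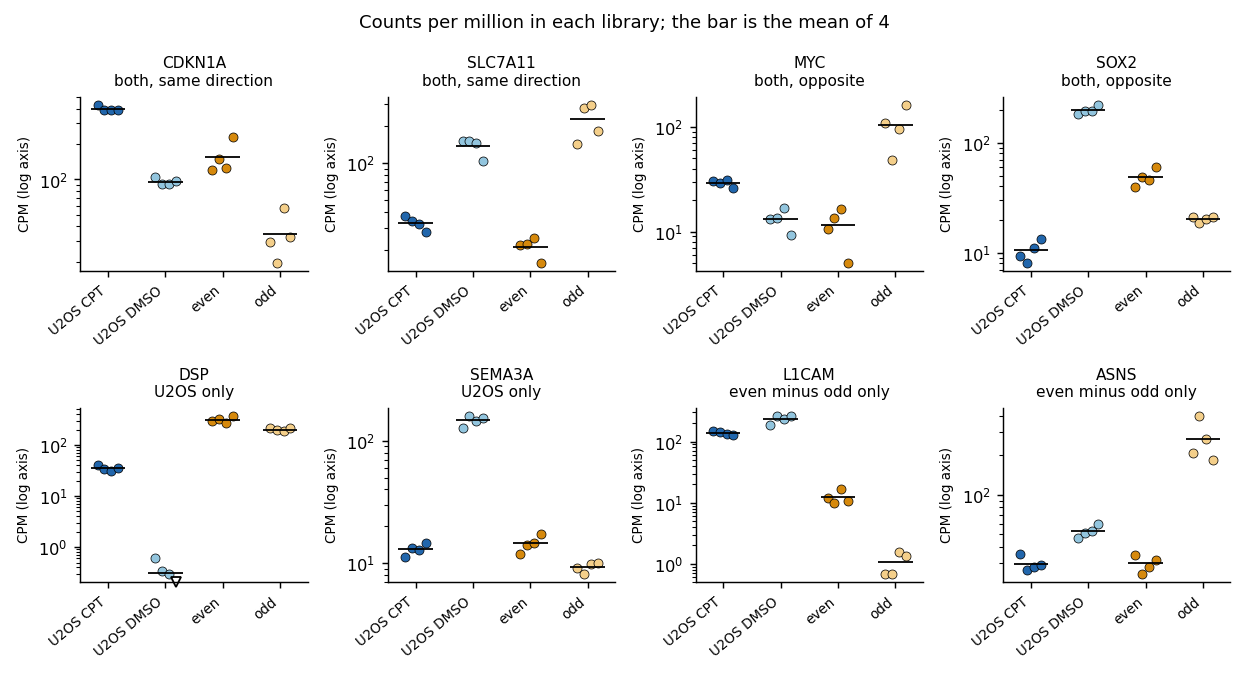
CPM (log axis) of 8 genes in the 4 U2OS CPT, 4 U2OS DMSO, 4 even and 4 odd libraries; points are libraries, bars are means of 4 and an open triangle marks a library with no count. CDKN1A and SLC7A11 shift the same way on both sides, MYC and SOX2 in opposite ways, DSP and SEMA3A mainly in U2OS, and L1CAM and ASNS mainly between even and odd.

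Of 38 p53 targets tested, 22 were higher with CPT in U2OS and none lower, and 11 were higher in the even than in the odd libraries and none lower (background 6.73% and 8.99% higher over all genes). The median log2 fold change over the list was 1.26 in U2OS and 0.74 in even minus odd, beside 0 and 0.05 over all genes tested. In the difference of differences 8 were higher and 1 lower (5.15% and 6.71% over all genes), with a median of 0.45 beside -0.06. Without odd replicate 15 these were 6 and 1, with a median of 0.27. The 8 that rose on both sides were CDKN1A, GDF15, MDM2, the p53 ubiquitin ligase, TP53INP1, EDA2R, DDB2, POLH and BTG2. MDM2 rose by 1.99 ± 0.12 (SE) in U2OS and 1.13 ± 0.12 (SE) in even minus odd. The 7 that rose in U2OS only were FAS, GADD45A, RRM2B, SESN1, SESN2, DRAM1 and KITLG. FAS, the death receptor, had 67.7, 92.1, 65.1 and 63.3 CPM with CPT and 15.1, 12.7, 10.8 and 9.61 CPM with DMSO, whereas its 12.6, 14.5, 16.3 and 13.99 CPM in the even and 9.43, 6.94, 16.9 and 11.8 CPM in the odd libraries overlapped. GADD45A, a growth-arrest gene, rose from a mean of 35.7 to 158 CPM in U2OS, and had 176 CPM in the even and 98.3 CPM in the odd libraries. The one member lower in the difference of differences was PLK2, a polo-like kinase, with 30.01, 36.7, 31.99 and 30.96 CPM in the even and 2.69, 2.03, 4 and 5.32 CPM in the odd libraries. In U2OS, PLK2 had 187, 212, 201 and 220.2 CPM with CPT and 135, 172, 124 and 125 CPM with DMSO, a log2 fold change of 0.73 ± 0.12 (SE), short of the cutoff. Some calls rested on 1 library or on the controls: POLH had 0.99 in U2OS without CPT replicate 29, and in the difference of differences SESN1 had 0.89 without odd replicate 15 and DRAM1 was under the cutoff in each of 7 fits that left out 1 library (lowest 0.91). Against replicates 22 to 25, DDB2 and EDA2R were not called in even minus control (0.97 and 0.54), nor DRAM1, SESN1 and RRM2B in the difference of differences (0.95, 0.76 and 0.96). The apoptotic targets BAX, BBC3 and PMAIP1 were not called on either side, with values of 0.37 ± 0.26 (SE), 0.51 ± 0.13 (SE) and 0.39 ± 0.13 (SE) in U2OS and 0.42 ± 0.23 (SE), 0.55 ± 0.12 (SE) and 0.57 ± 0.12 (SE) in even minus odd. With replicates 22 to 25 in place of the odd libraries, 14 members were higher in even minus control and 7 higher and 1 lower in the difference of differences. With all libraries labelled U2OS WT as controls, 8 were higher in even minus control, and 3 were higher and none lower in the difference of differences. With the second side built from the labels, 4 were higher and 3 lower on that side and 17 higher in the difference of differences. That side sets libraries with U2OS markers against controls with either cell line's markers, so these counts cannot be read as a treatment effect. It gave 3535 calls over all genes on the second side and 1496 in the difference of differences, higher and lower together. Replicates 22 to 25 gave 4005 and 3767, and all libraries labelled U2OS WT 1712 and 1456. The shares over all genes therefore do not apply to counts from these settings, here or below. With the labels, FAS was called higher on the second side too (1.09), which takes it out of the U2OS-only class. Cell line and treatment cannot be told apart in that call.

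**Figure D3:**
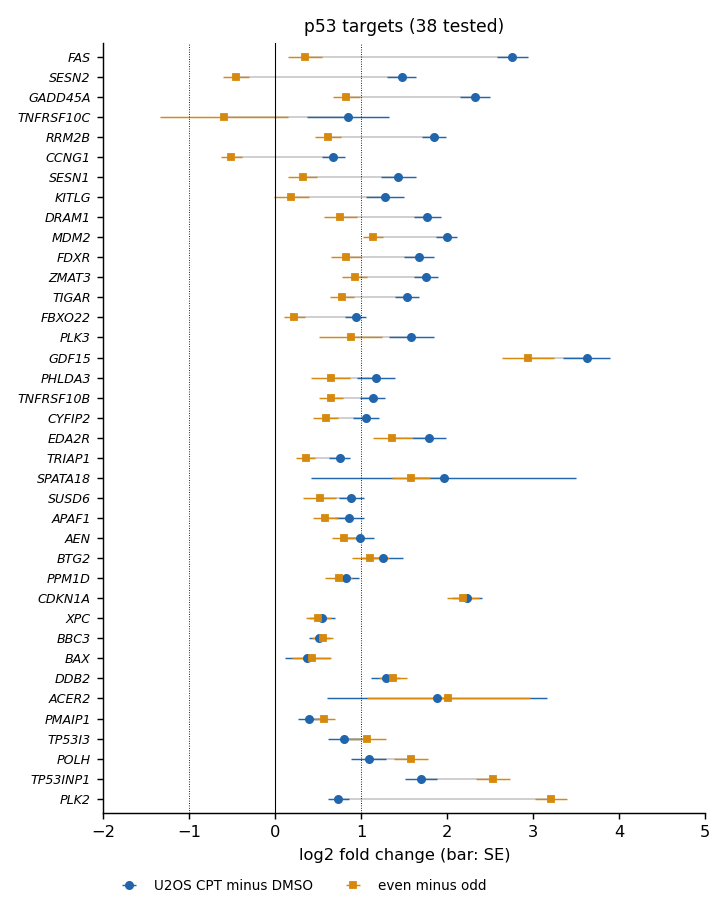
The log2 fold change with its standard error (worked back from the F statistic) for each of 38 p53 targets, in U2OS (CPT minus DMSO, circles) and in even minus odd (squares), ordered by the difference between them. FAS, SESN2 and GADD45A at the top lie further right in U2OS, the symbols of CDKN1A overlap at 2.23 and 2.18, and PLK2 at the bottom lies further right in even minus odd.

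Of the ranked genes that rose in U2OS and fell in even minus odd, MYC, the growth-promoting transcription factor, had the largest difference of differences (4.60 ± 0.35 (SE)). Rankings within the classes cover genes at 5 CPM or more on both sides with no overlap of the arms called. MYC had 30.6, 28.9, 31.2 and 25.9 CPM with CPT and 13.3, 13.4, 16.7 and 9.37 CPM with DMSO in U2OS. It had 10.7, 13.6, 16.6 and 5.03 CPM in the even and 109, 47.7, 95.99 and 163 CPM in the odd libraries. Neither pair of arms overlapped, and the log2 fold changes were 1.31 ± 0.25 (SE) and -3.28 ± 0.24 (SE). Its paralogue MYCN went the other way: 1.09 CPM on average with CPT and 11.9 CPM with DMSO in U2OS, and 3.47 CPM in the even and 1.55 CPM in the odd libraries. The even-minus-odd call of MYCN (1.06) was lost without replicate 10 (0.90), 13 (0.86) or 14 (1.01) and against replicates 22 to 25 (0.33). SNAI2, a repressor that drives epithelial-mesenchymal transition, had 37.1, 27.9, 38.4 and 38.05 CPM with CPT against 8.95, 6.19, 6.45 and 4.08 CPM with DMSO, and 30.9, 46.3, 34.2 and 25.5 CPM in the even against 90.1, 59.4, 111 and 109 CPM in the odd libraries. GREB1, a co-regulator of hormone receptors, COL13A1, a transmembrane collagen, and the receptor kinase gene EPHB1 also rose in U2OS and fell in even minus odd, by differences of 3.98 ± 0.26 (SE), 3.88 ± 0.34 (SE) and 3.52 ± 0.29 (SE).

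The reverse pattern, a fall with CPT in U2OS and a rise in the even libraries, was the more frequent, with 131 of 163 opposite genes. SOX2, a pluripotency factor, had 9.42, 8.06, 11.1 and 13.4 CPM with CPT and 182, 196, 195 and 222 CPM with DMSO. Its level was 39.8, 48.8, 46.1 and 60.5 CPM in the even and 21.1, 18.8, 20.4 and 21.1 CPM in the odd libraries, so that the U2OS arms moved by -4.09 ± 0.16 (SE) and the other side by 1.25 ± 0.15 (SE). SGK1, a kinase induced by glucocorticoids, had 15.01, 14.9, 20.4 and 15.3 CPM with CPT and 77.2, 55.7, 46.6 and 49.5 CPM with DMSO, against 14.1, 22.8, 13.8 and 20.8 CPM in the even and 2.19, 1.86, 2.22 and 0.665 CPM in the odd libraries. FGF9, a growth factor, and MAP2, a neuronal microtubule protein, had differences of -6.21 ± 0.40 (SE) and -5.10 ± 0.38 (SE). DHRS2, a mitochondrial reductase, had 267, 220.5, 181 and 186 CPM with CPT, 2195, 1518, 1396 and 1119 CPM with DMSO, 67.05, 51.5, 39.7 and 35.8 CPM in the even and 7.75, 12.2, 8.22 and 8.64 CPM in the odd libraries. In replicates 22 to 25 DHRS2 stood at 52.3, 34.3, 25.8 and 13.3 CPM, which overlaps the even libraries, and against them it was no longer called on that side (0.67). The other 11 of the 12 leading opposite genes kept both calls with those controls. Across all 163, 121 did. With all libraries labelled U2OS WT as controls 7 of the 12 stayed opposite, and with the second side built from the labels 4. The even-minus-odd call of SOX2 was lost in both (0.76 and 0.48). SGK1 was called on neither side in both, at 1.04 and -0.92 on the second.

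Among changes in U2OS only, DSP, SUGCT and MYLK led the rises. DSP, a desmosomal protein, had 40.02, 33.2, 31.5 and 35.6 CPM with CPT and 0.618, 0.344, 0.293 and 0 CPM with DMSO, and 289, 320.4, 265 and 364 CPM in the even and 211, 194, 186 and 210.1 CPM in the odd libraries. The gene was thus at the counting floor in DMSO-treated U2OS, where 3 counts correspond to 0.721 to 1.03 CPM, and already high on the other side. With the second side built from the labels DSP was at -6.19 there, and so opposite. That setting compares libraries with U2OS markers to controls that include HEK293T markers, so the value cannot be told from a cell-line difference. SUGCT, a mitochondrial CoA transferase, had 105, 135, 135 and 129 CPM with CPT and 10.2, 4.82, 4.98 and 4.33 CPM with DMSO, against 3.67, 8.03, 7.68 and 3.77 CPM in the even and 7.75, 4.23, 11.3 and 10.9 CPM in the odd libraries, which overlapped each other. FHL2, a LIM-domain co-regulator, and PDLIM1, a cytoskeletal adaptor, rose by 2.60 ± 0.13 (SE) and 3.32 ± 0.20 (SE) in U2OS and had -0.39 ± 0.14 (SE) and -0.36 ± 0.13 (SE) in even minus odd. MYLK, the myosin light chain kinase, rose from 44.1, 32.7, 39.5 and 40.1 CPM to 378, 386, 362 and 315 CPM, and in even minus odd stood at -0.88 ± 0.20 (SE), just under the fold cutoff, with 1 even library inside the range of the odd ones. Without even replicate 10 MYLK was called lower there (-1.10), which moves it to the opposite class, as did all libraries labelled U2OS WT as controls (-1.30). With the second side built from the labels MYLK was at 2.73, with the same limit as for DSP. SEMA3A, a secreted guidance cue, fell, with 11.2, 13.3, 12.8 and 14.7 CPM with CPT and 128, 159, 144 and 154 CPM with DMSO; the even libraries had 11.9, 14.2, 14.7 and 17.4 CPM and the odd 9.1, 8.12, 9.78 and 9.97 CPM. BMF, a BH3-only apoptosis activator, LAMA4, a laminin chain, and YPEL1 also fell in U2OS only, by 4.18, 3.96 and 3.47 on the log2 scale. RNF43, a ubiquitin ligase that removes Wnt receptors, fell from 91.1, 112, 101 and 101 to 5.002, 4.65, 6.92 and 10.6 CPM, and its even-minus-odd value of 1.00 ± 0.20 (SE) lay at the cutoff. RNF43 was called higher in even minus odd, and so left this class, under DESeq2 (1.06), RLE normalization (1.06), filterByExpr (1.07), replicates 22 to 25 as controls (1.07) and without replicate 12 (1.08), 13 (1.03), 14 (1.05) or 17 (1.05). With all libraries labelled U2OS WT as controls its difference of differences was not called. ITGA2, an integrin chain at -0.99 in even minus odd, left the class without any filter, with either of these control sets and without replicate 10, 13 or 14.

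Among changes in even minus odd only, L1CAM, BASP1, GADD45B and EGR1 were among the leading rises. L1CAM, a neural adhesion molecule, had 11.9, 9.88, 16.6 and 10.5 CPM in the even and 0.674, 0.677, 1.55 and 1.33 CPM in the odd libraries, and 150.1, 141, 135 and 128 CPM with CPT and 186, 258, 230.3 and 263 CPM with DMSO in U2OS. BASP1, a membrane protein of growth cones, had 60.01, 61.7, 75.8 and 93.7 CPM in the even and 4.38, 6.26, 8.22 and 7.54 CPM in the odd libraries, while its U2OS arms, at 13.2, 15.8, 14.2 and 16.5 CPM and 17.3, 15.1, 20.5 and 25.9 CPM, overlapped. EGR1, an immediate-early transcription factor, had 19.9, 20.99, 25.9 and 25.5 CPM in the even and 2.86, 5.42, 3.11 and 2.66 CPM in the odd libraries, and moved the other way in U2OS, short of the cutoff, with 39.1, 40.9, 52.6 and 48.04 CPM and 63.9, 89.5, 68.6 and 73.1 CPM. EGR1 was not called on the second side or in the difference of differences with all libraries labelled U2OS WT as controls (-0.10 and -0.45) or with the second side built from the labels (0.15 and -0.70). GADD45B, a stress sensor, rose by 3.39 ± 0.19 (SE) in even minus odd and had -0.23 ± 0.17 (SE) in U2OS. TAP2, a subunit of the peptide transporter for antigen presentation, was lower in the even (11.6, 12.04, 13.1 and 7.23 CPM) than in the odd libraries (42.8, 32.7, 35.5 and 39.5 CPM), and in U2OS had 117, 115, 116 and 113 CPM with CPT and 74.7, 101, 58.3 and 61.04 CPM with DMSO (0.82 ± 0.14 (SE), and called at 1.01 without DMSO replicate 31).

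A pair of settings put libraries with U2OS and HEK293T markers together on the second side, and the leading genes of the classes depended on them. With all libraries labelled U2OS WT as controls, 10 of the 12 leading genes that moved together stayed in their class, 7 of the opposite, 8 of the U2OS-only and 9 of the even-minus-odd-only genes. With the second side built from the labels these were 3, 4, 6 and 2. In the second setting CDKN1A (1.02) and TAP2 (0.80) were not called on that side. ASNS (-1.43) and CHAC1 (-1.39) were called there but not in the difference of differences (0.76 and 1.83). MYC kept its fall (-2.13) but not its U2OS call, and BASP1 turned to -3.29. L1CAM was not called on the second side in either setting (-2.80 and 1.19), nor AREG in the first (1.24). There SEMA3A lost its call in the difference of differences (-2.25). In both, HIST1H2AC and IER3 were called on neither side.

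The other leading falls in even minus odd included the ATF4 targets CHAC1, PSAT1, ASNS and SLC7A1. Of 29 ATF4 targets tested, 21 were lower in the even than the odd libraries and none higher, beside 3.96% lower over all genes, with a median log2 fold change of -1.71. In U2OS, 2 were higher and 4 lower with CPT, beside 6.73% and 4.77% over all genes, so that the 2 are at the background, with a median of -0.06. The difference of differences was above the cutoff in 22 and below it in none, beside 5.15% and 6.71% over all genes. Its median was 1.63, beside -0.06 over all genes. ASNS, asparagine synthetase, had 34.9, 24.7, 28.1 and 31.9 CPM in the even and 209, 398, 267 and 184 CPM in the odd libraries. Its U2OS values were 35.01, 26.7, 28.1 and 29.01 CPM with CPT and 46.6, 50.9, 52.4 and 59.8 CPM with DMSO, which did not overlap but differed by less than the cutoff (-0.67 ± 0.19 (SE)). PSAT1, of serine synthesis, had 72.6, 68.5, 74.8 and 69 CPM in the even and 280.1, 402, 388 and 346 CPM in the odd libraries, and overlapping values of 34.7, 27.3, 28.1 and 24.3 CPM and 37.7, 30.3, 24.6 and 19.2 CPM in U2OS. CHAC1, which degrades glutathione, had 2.76, 4.32, 8.64 and 5.03 CPM in the even and 22.2, 40.95, 56 and 18.6 CPM in the odd libraries, and 10, 4.96, 7.96 and 4.99 CPM with CPT and 7.41, 5.85, 4.1 and 5.77 CPM with DMSO in U2OS. The transcript of ATF4 itself fell by 1.88 on the log2 scale in even minus odd and had -0.48 ± 0.17 (SE) in U2OS. PHGDH, SLC7A11, DDIT4 and SLC6A9 were lower on both sides (PHGDH at -0.98 and not called against replicates 22 to 25), while ATF3 and SESN2, which p53 also activates, were higher in U2OS only. The separate HEK293T DMSO libraries, replicates 22 to 25, had 349, 372, 260.5 and 246 CPM of ASNS and 424, 327, 362 and 278 CPM of PSAT1, at the level of the odd libraries. With them as controls 17 ATF4 targets were lower in the even libraries and 20 were above the cutoff in the difference of differences. With the second side built strictly from the labels (replicates 2, 4, 6 and 8 labelled HEK293T CPT, against 3, 5, 7, 17 and 22 to 25 labelled HEK293T DMSO) these counts were 11 and 6, and 2 were below the cutoff. That second side mixes libraries with U2OS and HEK293T markers (values above), so its counts do not separate cell line from treatment. It had 3535 calls over all genes, and 1496 in the difference of differences.

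ATF4 binds a composite site read here as TGATGNAA or, on the other strand, TTNCATCA. In the 250 bases before the first listed RefSeq start (GRCh38.p14), it was present in 4 of the 25 ATF4 targets with an entry (16%) and in 870 of 27305 genes (3.19%). Of the 5 members with the largest difference of differences, ASNS and CHAC1 held it and are shown here 5′ to 3′ on the gene's strand with the match in capitals: ASNS at chr7:97872409-97872658 (minus strand) and CHAC1 at chr15:40953221-40953470 (plus strand).
ASNS: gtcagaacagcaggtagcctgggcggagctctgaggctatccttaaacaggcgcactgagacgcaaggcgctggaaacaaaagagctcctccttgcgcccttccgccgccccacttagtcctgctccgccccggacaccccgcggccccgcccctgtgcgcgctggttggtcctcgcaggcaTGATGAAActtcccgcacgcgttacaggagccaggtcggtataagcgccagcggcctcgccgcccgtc
CHAC1: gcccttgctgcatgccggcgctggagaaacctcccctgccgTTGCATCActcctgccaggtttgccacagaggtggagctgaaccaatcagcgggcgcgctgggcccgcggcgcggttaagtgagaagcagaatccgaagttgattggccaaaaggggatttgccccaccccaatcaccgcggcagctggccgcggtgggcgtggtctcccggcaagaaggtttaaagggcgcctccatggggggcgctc
A match describes letters in this window and is not evidence of binding.

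Genes of G2 and mitosis had the largest share called in the difference of differences of the 18 lists examined. Of 32 tested, 28 were below the cutoff and none above, with a median of -1.55 beside -0.06 over all genes and 6.71% called lower. In U2OS, 11 were lower with CPT and none higher (median -0.90), and 4 were higher in the even than the odd libraries and none lower (median 0.60). Over all genes 4.77% were lower in U2OS and 8.99% higher in even minus odd, and the 4 of 32 lie near the latter. Without the fold cutoff, at an adjusted p below 0.05 alone, 31 were lower in U2OS, 29 higher in even minus odd, and 32 lower in the difference of differences. Over all 22363 genes, that threshold gave 5771 calls in U2OS, 7074 in even minus odd and 4544 in the difference of differences, higher and lower together. KIF20A, a mitotic kinesin, was the one member called on both sides, with 47.1, 53.04, 42.9 and 52.4 CPM with CPT and 190.5, 171, 121 and 106 CPM with DMSO, and 186, 175, 171 and 105 CPM in the even and 78.99, 56.2, 60 and 95.97 CPM in the odd libraries. Its even-minus-odd call (1.08 ± 0.15 (SE)) was lost without replicate 10, 13 or 15 (0.990 to 0.997) and with all libraries labelled U2OS WT as controls (0.72). PLK1, the polo-like kinase that drives entry into mitosis, had 24.7, 27.3, 29.1 and 29.3 CPM with CPT and 83.7, 79.1, 83.8 and 95.2 CPM with DMSO. It had 198, 152, 169.5 and 155 CPM in the even and 110.1, 116, 86.2 and 99.3 CPM in the odd libraries, so that the arms did not overlap on either side and moved in opposite directions (-1.48 ± 0.14 (SE) and 0.67 ± 0.12 (SE), the second under the cutoff). AURKA, the centrosomal Aurora kinase, was called in even minus odd, with 311, 298, 329.5 and 328 CPM against 124, 125, 93.1 and 106 CPM, and had 74.4, 74.1, 88.99 and 84.8 CPM with CPT and 157, 171, 158 and 188 CPM with DMSO in U2OS. CCNB1, the mitotic cyclin, and MKI67, a proliferation marker, had differences of -1.84 ± 0.16 (SE) and -1.995 ± 0.18 (SE), and the smallest on the list was CDK1 at -0.60 ± 0.16 (SE). With replicates 22 to 25 as controls, 27 were below the cutoff in the difference of differences, and with the second side built from the labels 17 were. The 4 rises in even minus odd became 8 under DESeq2, RLE normalization or filterByExpr, between 3 (without odd replicate 15) and 7 (without odd replicate 17) with 1 library left out, 6 without even replicate 14 or 16, and 11 against replicates 22 to 25. They became 2 with all libraries labelled U2OS WT as controls. With the second side built from the labels, none was higher and 1 lower on that side, with a median of 0.20.

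**Figure D4:**
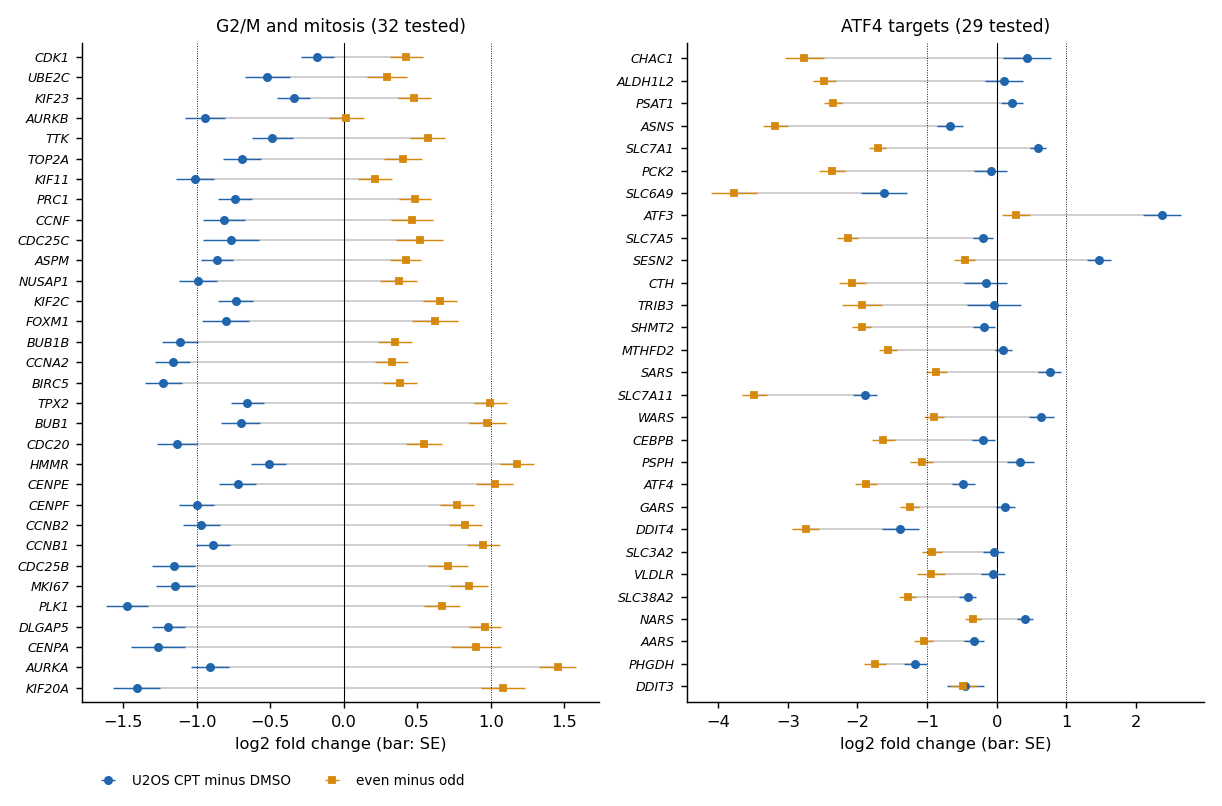
The log2 fold change with its standard error (worked back from the F statistic) for 32 genes of G2 and mitosis (left) and 29 ATF4 targets (right), in U2OS (CPT minus DMSO, circles) and even minus odd (squares). On the left every circle lies below 0 and every square above 0; on the right every square but that of ATF3 lies below 0, and the circles lie between -0.67 and 0.76 except those of ATF3, SESN2 and the 4 genes lower on both sides.

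Many promoters of this list hold the cell cycle homology region, whose core is read here as TTTGAA, or TTCAAA on the other strand. It was present in the 250 bases before the first listed start of 15 of the 26 members with an entry (57.7%) and of 3704 of 27305 genes (13.6%). Of the 5 members with the largest difference of differences, CENPA, DLGAP5 and PLK1 held it and are shown with the match in capitals: CENPA at chr2:26785806-26786055 (plus strand), DLGAP5 at chr14:55191586-55191835 (minus strand) and PLK1 at chr16:23678639-23678888 (plus strand).
CENPA: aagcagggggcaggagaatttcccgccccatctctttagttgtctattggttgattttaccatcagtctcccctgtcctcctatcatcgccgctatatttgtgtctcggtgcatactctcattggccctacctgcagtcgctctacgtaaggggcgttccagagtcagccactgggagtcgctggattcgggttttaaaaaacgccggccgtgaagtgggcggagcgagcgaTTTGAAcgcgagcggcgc
DLGAP5: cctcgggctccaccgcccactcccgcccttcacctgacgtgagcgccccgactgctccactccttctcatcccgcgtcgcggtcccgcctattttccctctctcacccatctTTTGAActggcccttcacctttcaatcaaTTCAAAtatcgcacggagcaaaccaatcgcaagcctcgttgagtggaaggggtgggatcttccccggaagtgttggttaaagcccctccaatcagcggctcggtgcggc
PLK1: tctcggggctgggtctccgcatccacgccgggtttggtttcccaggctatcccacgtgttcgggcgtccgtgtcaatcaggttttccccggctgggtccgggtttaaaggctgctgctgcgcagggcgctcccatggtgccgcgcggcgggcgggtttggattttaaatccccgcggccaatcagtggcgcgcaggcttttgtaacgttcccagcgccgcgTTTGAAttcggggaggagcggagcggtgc
KIF20A and AURKA had no match in this window, which says only that these letters are not in it.

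Of 37 DNA replication genes tested, 9 were lower with CPT in U2OS and none higher (median -0.61), 1 was higher and 1 lower in even minus odd (median -0.16), and 5 were below the cutoff in the difference of differences, or 11 against replicates 22 to 25, beside 6.71% over all genes. Over all genes 4.77% were lower in U2OS, and 8.99% were higher and 3.96% lower in even minus odd, so that 1 of 37 in either direction is not above the background there. MCM6, a subunit of the replicative helicase, fell from a mean of 80.2 to 20.4 CPM in U2OS and had 135 CPM in the even and 142 CPM in the odd libraries. E2F1 also fell in U2OS only, CCNE2 was higher in even minus odd only (1.06, and 0.89 without odd replicate 13), and LIG1 was the member lower in the even libraries (-1.32 ± 0.16 (SE)). PCNA, the sliding clamp, was not called on either side (-0.01 ± 0.13 (SE) and -0.24 ± 0.12 (SE)).

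Histone genes split by member. Most replication-dependent histone mRNAs lack a poly(A) tail, so these oligo-dT primed libraries count their polyadenylated part, and near-identical copies make each gene's count uncertain. Of 16 tested, 8 were lower with CPT in U2OS and none higher, whereas 9 were higher and 5 lower in the even than the odd libraries, and 9 were below the cutoff in the difference of differences. Over all genes 4.77% were lower in U2OS, 8.99% higher and 3.96% lower in even minus odd, and 6.71% lower in the difference of differences. With all libraries labelled U2OS WT as controls, 5 were lower in U2OS, 4 higher and 4 lower on the second side, and 4 below in the difference of differences. With the second side built from the labels, 13 were tested and 3 were lower in U2OS. On that second side none was higher and 2 lower (median -0.32), with 3 below in the difference of differences. These settings gave 1767 and 1279 calls over all genes in U2OS, rather than 2570, so the shares above do not apply to them. HIST1H2AC had 18.5, 19.5, 20.1 and 16.2 CPM with CPT and 63.3, 66.1, 63.3 and 52.4 CPM with DMSO, and 48.7, 50.9, 41.6 and 52.97 CPM in the even and 6.74, 5.75, 10.2 and 6.21 CPM in the odd libraries. HIST1H2BJ, HIST1H2BD and HIST1H2BK, of the H2B family, were likewise called in opposite directions. The U2OS call of HIST1H2BJ (-1.10) was lost without CPT replicate 27 (-0.98), and that of HIST1H2BD (-1.03) under DESeq2, RLE normalization and without replicate 26, 28, 32 or 33 (-0.95 to -0.99). HIST1H4C and the linker histones HIST1H1C and HIST1H1E were lower on both sides, HIST1H4C by 2.83 and 1.65 on the log2 scale. Against replicates 22 to 25, HIST1H1C was at -0.97 and not called.

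In the NF-κB and AP-1 list, 9 of 26 genes were higher and 3 lower with CPT in U2OS, and 13 were higher and none lower in the even libraries. The shares over all genes were 6.73% higher and 4.77% lower in U2OS and 8.99% higher and 3.96% lower in the even libraries. In the difference of differences 2 were higher and 8 lower (5.15% and 6.71% over all genes), the 2 being near the background. IER3, an immediate-early survival gene, had 364, 349, 408 and 379 CPM with CPT and 772, 978, 741 and 914 CPM with DMSO, and 77.8, 84.9, 57.9 and 91.6 CPM in the even and 15.3, 12.2, 12.9 and 15.96 CPM in the odd libraries. The AP-1 subunit genes FOS and JUNB also fell in U2OS and rose in even minus odd, with differences of -5.39 ± 0.58 (SE) and -3.58 ± 0.32 (SE). RELB and NFKBIZ, of the NF-κB pathway, rose on both sides by 1.14 ± 0.19 (SE) and 1.30 ± 0.18 (SE) in U2OS and 1.60 ± 0.25 (SE) and 1.44 ± 0.25 (SE) in even minus odd, though NFKBIZ had 0.23 against replicates 22 to 25. The 3 U2OS falls, at the edge of the cutoff for JUNB (-1.02 ± 0.23 (SE)) and IER3 (-1.02 ± 0.13 (SE)), numbered 1 under DESeq2 or RLE normalization and 1 without DMSO replicate 31.

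Of 30 chemokines, interleukins and matrix proteases, 8 were higher and 2 lower with CPT in U2OS and 11 higher and none lower in the even libraries, while 6 were below the cutoff in the difference of differences (6.71% over all genes). Beside the 4.77% lower over all genes in U2OS, 2 of 30 is near the background, and the shares higher over all genes were 6.73% and 8.99%. IGFBP5, an insulin-like growth factor binding protein, fell in U2OS only, from a mean of 755 to 107 CPM, with 86.4 and 80.8 CPM in the even and odd libraries. MMP2, a gelatinase, was higher in even minus odd only, at 9.09 against 2.75 CPM. Of 31 interferon-stimulated genes, 7 were higher and 3 lower in U2OS and 6 higher and none lower in the even libraries, against the same shares over all genes. In the difference of differences 4 were below the cutoff and none above (6.71% and 5.15% over all genes). The 7 became 3 without DMSO replicate 30, 4 without DMSO replicate 32 and 3 under filterByExpr, which left 19 members tested. IFIT3 rose on both sides. IFIT2 did so as fitted, but its U2OS call (1.25) was lost under DESeq2, with no filter and without replicate 27, 28, 30, 32 or 33 (1.05 to 1.32, past the fold but not the adjusted p), and its even-minus-odd call (2.10) without replicate 10 (1.85). By contrast, SAMD9 was higher in the even libraries only, 19.3 against 3.17 CPM, and IFI44L moved in opposite directions. Only 8 and 6 members of these lists had 5 CPM or more on both sides. With replicates 22 to 25 as controls, the chemokine list had 5 members above and 3 below the cutoff in the difference of differences.

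Of 26 keratin and epidermal genes, 12 were higher and 1 lower in U2OS (median 1.15) and 7 higher and none lower in the even libraries (median 0.63). In the difference of differences 4 were above the cutoff and 1 below (5.15% and 6.71% over all genes). Against replicates 22 to 25 these were 10 and 1. COL17A1, a hemidesmosomal collagen, rose from a mean of 0.267 to 89.2 CPM in U2OS and stood at 1.99 CPM in the even and 0.0423 CPM in the odd libraries. LAMA3, a chain of laminin-332, rose in U2OS only, from 0.249 to 14.6 CPM. Of 22 smooth muscle and contractile genes, 7 were higher and 1 lower in U2OS and 7 higher and none lower in the even libraries. Their difference of differences was above the cutoff in 3 and below it in 3. ACTA2, smooth muscle actin, rose on both sides (3.99 ± 0.35 (SE) and 1.59 ± 0.23 (SE)), and TAGLN, transgelin, in U2OS only (1.86 ± 0.17 (SE) and -0.39 ± 0.44 (SE)). MYOCD, the coactivator of smooth muscle genes, had 0, 0.62, 0 and 1.25 CPM with CPT and 60.2, 37.5, 33.99 and 34.9 CPM with DMSO, and was near or under the counting floor in the even and odd libraries, with at most 1.84 CPM. Of 26 collagens and matrix genes, 5 were higher and 2 lower in U2OS and 8 higher and 1 lower in even minus odd, where without odd replicate 11 it was 5 higher. Over all genes 6.73% were higher and 4.77% lower in U2OS and 8.99% higher and 3.96% lower in even minus odd, so that the 2 and the 1 lower lie near the background. This last split turned with the controls: against replicates 22 to 25, 1 was higher and 9 were lower in the even libraries, and 13 were above the cutoff in the difference of differences rather than 4. Against the same controls, 3 keratin and epidermal genes were higher and 3 lower, 4 smooth muscle genes were higher and 4 lower, and the EGF list described next had 7 higher and 4 lower. These controls gave 4005 calls over all genes in even minus control, higher and lower together, rather than 2896. The shares over all genes given above therefore do not apply to these counts.

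Of 20 genes of the EGF family, its receptors and feedback inhibitors, 5 were higher and 3 lower in U2OS and 8 higher and none lower in the even libraries. Over all genes the shares were 6.73% higher and 4.77% lower, and 8.99% higher and 3.96% lower. In the difference of differences 3 were above the cutoff and 5 below (5.15% and 6.71% over all genes). Against replicates 22 to 25 these were 7 and 5. The ligands AREG, HBEGF and NRG1 rose on both sides, but against replicates 22 to 25 NRG1 was at -0.77 and not called. The receptor EGFR rose in U2OS only (1.26 ± 0.15 (SE), beside -0.66 ± 0.15 (SE) in even minus odd) and ERBB3 fell there (-2.23 ± 0.28 (SE) and 0.15 ± 0.26 (SE)). Of the feedback inhibitors, DUSP6, a phosphatase of ERK, was higher in the even libraries only (9.27 against 0.88 CPM) and SPRY2 moved in opposite directions (-1.27 ± 0.29 (SE) and 1.56 ± 0.21 (SE)). Of 25 neural and hormone genes, 6 were higher and 2 lower in U2OS and 12 higher and none lower in the even libraries, the 2 lower in U2OS being near the 4.77% over all genes. Their difference of differences was above the cutoff in 2 and below it in 5 (5.15% and 6.71% over all genes). STMN2 and VGF, a neuronal stathmin and a neuropeptide precursor, rose on both sides, STMN2 more in U2OS (3.40 ± 0.49 (SE)) and VGF more in even minus odd (-2.56 ± 0.42 (SE)). The even-minus-odd call of STMN2 (1.02) was lost without replicate 10, 11, 15, 16 or 17 (0.85 to 0.98), and the U2OS call of VGF (1.03) without replicate 29, 30 or 32 (0.94 to 0.98). With the second side built from the labels, 3 neural genes were higher and 7 lower on that side, and of the NF-κB and AP-1 genes none was higher and 1 lower. That side had 3535 calls over all genes, rather than 2896, so the shares above do not apply to these counts.

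Cytosolic chaperones changed in few members. Of 40 tested, 4 were higher and 1 lower in U2OS and 7 higher and 1 lower in the even libraries, beside 6.73% higher and 4.77% lower, and 8.99% higher and 3.96% lower, over all genes. The 1 lower in the even libraries was lost under DESeq2, RLE normalization or filterByExpr and without replicate 10, 11, 12, 13 or 15. The 7 higher became 10 against replicates 22 to 25 and 3 with all libraries labelled U2OS WT as controls. With the second side built from the labels, 2 were higher and 3 lower there. Of the 40, 5 were below the cutoff in the difference of differences (3 without CPT replicate 29), beside 6.71% over all genes, with a median of -0.18. The 5 became 2 with all libraries labelled U2OS WT as controls, and 7, with 1 above, against replicates 22 to 25. With the second side built from the labels, 2 were above and none below, with a median of 0.09. That side mixes cell lines, so a turn in direction cannot be read from it. In that fit no chaperone gene was higher with CPT in U2OS and 1 was lower. It gave 1279 calls over all genes in U2OS, rather than 2570, and 3535 on the second side. The small heat shock protein gene HSPB8 rose on both sides (2.12 ± 0.22 (SE) and 2.06 ± 0.44 (SE)). HSPA1A and HSPA1B, near-identical genes of the inducible HSP70 between which reads can be split, were called in even minus odd only, with means of 3.81 against 1.46 CPM and 152 against 73.1 CPM. HSPA1A overlapped between even and odd libraries and stood at a mean of 6.05 CPM in replicates 22 to 25, against which it was at -0.51 and not called. HSPA1B (1.01) was not called against them (0.58) or without replicate 10, 12, 13 or 15 (0.75 to 0.98). DNAJB1, an HSP40 that works with HSP70, was called in neither difference but passed in the difference of differences (-1.22 ± 0.20 (SE)).

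The remaining lists had few calls in U2OS or in even minus odd. Most of these were at or near the shares over all genes (6.73% higher and 4.77% lower in U2OS, 8.99% higher and 3.96% lower in even minus odd). Of 28 ribosome biogenesis genes and MYC family members, 2 were higher and 1 lower in U2OS and 1 higher and 1 lower in even minus odd, MYC and MYCN being both of the latter. RRP12 was higher in U2OS only (1.64 ± 0.21 (SE)). In the difference of differences 5 of the 28 were above the cutoff and 1 below, beside 5.15% and 6.71% over all genes (median 0.42). Of 23 cholesterol synthesis genes, 1 was higher in U2OS, the synthase gene HMGCS1 (1.20 ± 0.13 (SE)), and INSIG1 and SREBF2 were lower in the even libraries (INSIG1 not against replicates 22 to 25, at -0.84), with 4 above the cutoff in the difference of differences (5.15% over all genes). Of 24 NRF2 targets, 1 was higher and 1 lower in U2OS and 3 higher and 2 lower in even minus odd. Against replicates 22 to 25, 8 NRF2 targets were higher and 3 lower in the even libraries, and 9 rather than 3 were below the cutoff in the difference of differences. Over all genes 6.71% were below it with the odd libraries. Replicates 22 to 25 gave 4005 rather than 2896 calls over all genes on the second side, and 3767 rather than 2651 in the difference of differences. HMOX1, haem oxygenase, was higher in the even libraries only, 43.05 against 9.36 CPM. Of 25 topoisomerases and their repair factors, 1 was lower in U2OS (XRCC1, -1.04) and 2 were lower in the even libraries, TOP1MT among them. XRCC1 was not called under DESeq2 or RLE normalization or without replicate 28, 31 or 33 (-0.74 to -0.99), nor TOP1MT against replicates 22 to 25 (-0.79).

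TOP1, the target of CPT, had 326, 307, 308 and 244 CPM with CPT and 287, 324, 396 and 468 CPM with DMSO, which overlapped, and 872, 837, 997 and 1156 CPM in the even and 616, 599, 498 and 458 CPM in the odd libraries, which did not. The log2 fold changes were -0.17 ± 0.15 (SE) (adjusted p 0.463, edgeR) and 0.79 ± 0.15 (SE) (adjusted p 3.68e-05), with a difference of -0.96 ± 0.21 (SE) (adjusted p 5.08e-04), under the fold cutoff in each case. ATM, the gene named in the label of the even libraries, had 39.8, 39.5, 31.99 and 28.8 CPM there and 26.6, 21.1, 34.2 and 36.4 CPM in the odd libraries, which overlapped (0.21 ± 0.15 (SE), adjusted p 0.303, edgeR). Counts from the 3′ end of a transcript do not check a deletion elsewhere in the gene. In U2OS, ATM had 63.3, 72.3, 85.5 and 74.5 CPM with CPT and 87.7, 69.5, 78.2 and 55.03 CPM with DMSO.

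Replicates 18 to 21, labelled HEK293T ATM KO, and 22 to 25, HEK293T DMSO, took no part in the fit. Of 18413 genes tested between them, none passed the cutoffs and 1019 had an unadjusted p below 0.05 (edgeR). The median log2 difference between them lay between -0.05 and 0.00 in each of the 4 classes, and no member of any of the 18 lists was called.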

How the data were processed

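RNA from 32 libraries was prepared with a 3′ mRNA kit with unique molecular identifiers, and the authors deposited 1 table of raw counts per Ensembl gene made with the Lexogen QuantSeq pipeline. Which aligner, build and gene annotation went into them is not given in the sources used here. Symbols came from GENCODE 29. All 32 columns matched a sample. The 5 summary rows, 10.9 to 40.6% of a library in the 16 used here, stayed out of library sizes and tests. Depth per library is given above, and 3 counts, the floor used, are 0.472 to 1.04 CPM.

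The 16 libraries were fitted once in edgeR 4.0.16 (R 4.3.3) with TMM normalization and the quasi-likelihood test, after a check on simulated data. Genes above 1 count in 2 or more libraries entered, and a gene passed at an absolute log2 fold change above 1 and a Benjamini-Hochberg adjusted p below 0.05. Values per library are CPM of total counts on genes. Each SE is the absolute log2 fold change divided by the square root of the test's F statistic, not a fitted standard error. Alternatives were DESeq2 1.42.0, RLE normalization, the likelihood ratio test, other filters, no fold cutoff, other second sides and each library left out.

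Members and gene lists were chosen with earlier results of these data known. Genes were named by class and direction, at most 6 with the largest difference of differences (for shared changes, the largest smaller fold), at 5 CPM or more on both sides and with no overlap of the arms called. Up to 5 per list, at 5 CPM or more on 1 side, and TOP1 and ATM were added. Some genes that the rule named are not reported here. Other genes were chosen after their values were seen. No 2 libraries of an arm agreed within sampling noise (chi-square per degree of freedom at least 1.73). Promoter sequences are RefSeq's, GRCh38.p14.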

Additional observations from a re-analysis of the deposited data

Results flagged for a closer look

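In 10 of 144 groups of 4 libraries, 1 value stood further from the other 3 than Dixon's 95% critical value allows, which chance gives in about 1 of 20 groups. With CPT in U2OS, CDKN1A was 434 CPM in replicate 26 against 388.5 to 393 CPM, FAS was 92.1 CPM in replicate 27 against 63.3 to 67.7 CPM, SNAI2 was 27.9 CPM in replicate 27 against 37.1 to 38.4 CPM, and SGK1 was 20.4 CPM in replicate 28 against 14.9 to 15.3 CPM. With DMSO in U2OS, SLC7A11 was 103.8 CPM in replicate 33 against 146.5 to 151.9 CPM, and replicate 30 was the high library for both MYOCD (60.2 against 34.0 to 37.5 CPM) and SUGCT (10.2 against 4.33 to 4.98 CPM). In the odd libraries, GDF15 was 26.2 CPM in replicate 15 against 3.20 to 5.25 CPM, and EGR1 was 5.42 CPM in replicate 13 against 2.66 to 3.11 CPM. Even replicate 16 had 6362433 counts on genes, against 3126324 to 3266086 in the other 3 even libraries. Outside the gene counts, the 5 summary rows held a median of 18.6% of a library in the even libraries, above the 10.9 to 12.4% of the odd libraries.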

How the results depend on the processing

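Leaving out each library in turn gave 2409 to 2589 calls in U2OS, 2526 to 2914 in even minus odd and 2503 to 2675 in the difference of differences, 363 to 417 genes changed alike, 152 to 167 opposite, 765 to 815 in U2OS only and 756 to 845 in even minus odd only. Of 127 named genes, the difference of differences kept its call and direction, or stayed uncalled, in 127 under the likelihood ratio test or RLE normalization. This held for 123 under DESeq2, 124 under edgeR's filterByExpr and 126 with no filter. Direction was not checked for genes without a call: CDKN1A went from 0.05 to -0.004 under filterByExpr. filterByExpr left 1701 calls in even minus odd rather than 2896. With no fold cutoff there were 5771 calls in U2OS, 7074 in even minus odd and 4544 in the difference of differences, with 1638 genes changed alike, 814 opposite, 1426 in U2OS only and 1807 in even minus odd only. The shares over all genes given beside the lists are those with the odd libraries as controls and with the fold cutoff. With HEK293T DMSO replicates 22 to 25 as controls (chosen after seeing the data), there were 4005 calls in even minus control and 3767 in the difference of differences. With them 264 genes were opposite and 1532 changed in even minus odd only, and the difference of differences changed sign for ANKRD1 (1.63) and KRT17 (1.09). These controls moved the share of higher calls in even minus odd from 69.4 to 53.5%, and leaving out even replicate 16 moved it to 61.0%. Of the original members they kept 272 of those changed alike, 121 opposite, 581 in U2OS only and 487 in even minus odd only. The next 2 settings mix libraries with U2OS and HEK293T markers on the second side. With all libraries labelled U2OS WT as controls there were 1712 calls in even minus control and 1456 in the difference of differences, with 198 genes alike, 59 opposite, 518 in U2OS only and 425 in even minus control only. The difference of differences then changed sign, called or not, for ANKRD1 (3.94), DHRS2 (0.59), L1CAM (2.20), PLK2 (0.0164), MMP2 (0.64), HSPA1A (2.78), KRT17 (5.98), TNC (1.48), COL3A1 (2.77), IER3 (0.24) and VGF (1.25). Values near 0, such as that of PLK2, are differences lost rather than turned. With the second side built from the labels there were 1279 calls in U2OS, 3535 on the second side and 1496 in the difference of differences, with 252 genes alike, 58 opposite and 424 in U2OS only. The difference of differences changed sign, called or not, for AC097478.1 (1.07), ANKRD1 (1.43), SLC7A11 (-1.18), BASP1 (3.04), HIST1H3H (0.29), HSPA1B (0.18), DUSP6 (1.74), KRT17 (1.31), TNC (0.11) and UTP20 (-0.24). Beyond these constructions, the cause was not tested. Each side fitted on its own gives no difference of differences. At 2887962 to 6362433 counts per library, a gene at 1 CPM rests on few counts.

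No paired analysis was run, because the labels name no pairs and the groups compared share no replicate numbers.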
